A study of Rattus norvegicus with 8 samples.

Results

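The SR proteins, the heterogeneous nuclear ribonucleoproteins (hnRNPs) and the RNA-binding motif (RBM) proteins were followed in perfused rat liver as a group of 57 genes among 14506 measured genes. The members were chosen by name: 11 Srsf genes with Tra2a and Tra2b, 17 Hnrnp genes and 27 Rbm genes. For the 8 members with several probe sets, the one brightest on average over all 8 arrays was taken, a choice that does not use the buffer groups. Values are deposited log2 expression values from 1-colour Affymetrix arrays.

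Total RNA came from the livers of male rats of the outbred Wistar strain, aged 6 to 10 weeks. For perfusion the liver is taken out of the body and supplied with buffer through its blood vessels. In 4 samples the Krebs-Henseleit buffer, a salt solution, was hypoosmotic (225 mosm/L), which draws water into cells and swells them. In the other 4 samples it was normoosmotic (305 mosm/L). The time point is 120 min for all 8. No transgene or drug is named for either group. An isolated organ lacks hormonal and nervous input from the body. Whether each sample is a different rat is not stated, so the p-values rest on a spread between samples that may be in part technical.

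Pre-mRNA is spliced by the spliceosome, and the proteins studied here help to choose where it cuts. SR proteins carry stretches rich in arginine and serine, bind exon sequences and usually favour inclusion of the exon, while many hnRNPs bind introns or exons and favour skipping. Several members of both families also package, export, stabilise or translate mRNA, and many SR and hnRNP genes limit their own level through exons that send the transcript to nonsense-mediated decay. RBM is a naming class of proteins with an RNA recognition motif and holds spliceosome parts, splicing regulators and proteins of other RNA pathways. In hepatocytes, Rbm47 is also a cofactor of the editing of apolipoprotein B mRNA.

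The samples were checked as liver by 12 hepatocyte markers, whose mean log2 level per array lay between 11.36 and 11.65 in hypoosmotic samples and between 11.30 and 11.61 in normoosmotic samples. Of these 12, limma called 1 lower, the tyrosine aminotransferase gene Tat, and 0 higher. Another of the 12, Cyp2c11, read 7.74 in normoosmotic replicate 3, against 10.41 to 10.78 in the other normoosmotic samples. In the hypoosmotic samples it read 9.72 to 11.04. Of 60 measured markers of 7 other cell types (macrophage, endothelial, stellate, bile duct, lymphocyte, neutrophil and erythroid), limma called 0, and at an unadjusted p under 0.05 there were 3 lower and 2 higher. The 3 were the haemoglobin gene Hbb (−0.85, adjusted p = 0.279), the haem synthesis gene Alas2 (−0.23) and Reln of stellate cells (−0.46), and the 2 were Spp1 (0.26) and Cd3d (0.31). Another haemoglobin gene, Hbb-b1, had a change of −0.99 (unadjusted p = 0.0573), and 1 of 11 macrophage markers had a negative change. The part of these markers in the results was not tested. In each of these 7 lists the range of the mean level over the hypoosmotic samples overlapped that over the normoosmotic samples. Of the lymphocyte markers 5 of 10, and of the neutrophil markers 6 of 9, were among the dimmest 25% of genes. Array medians lay between 4.07 and 4.16 in hypoosmotic and between 4.05 and 4.15 in normoosmotic samples, and precision is limited by the number of arrays. Normoosmotic replicates 1 and 3 stood apart in clock genes. The clock score subtracts the mean log2 value of the clock genes Dbp and Per3 from that of Bmal1 and Npas2. It lay between −0.52 and 1.38 in hypoosmotic samples, and was −2.81 and −3.39 in normoosmotic replicates 1 and 3, against 1.26 and 1.49 in normoosmotic replicates 2 and 4.

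The comparison asks which of these transcripts differ between livers given dilute and normal perfusate. Rbm25 and Rbm28 fell, and 0 members rose, by limma at an adjusted p under 0.05 over all 14506 genes. That is 2 of 57 called lower, beside 1.42% of all genes called lower, 0.558% called higher and 1.98% called in either direction. Below that threshold the members lay mostly on the lower side. In 14 of 57 (24.6%) all 4 hypoosmotic values lay under all 4 normoosmotic values, beside 5.05% of all genes, and in 0 of 57 all lay above, beside 3.21%. At an unadjusted p under 0.05, 20 members (35.1%) were lower and 2 were higher, beside 7.97% and 6.60% of all genes. Without hypoosmotic replicate 3 the 20 became 13, and without normoosmotic replicate 1 or 2 the 2 became 0. The members were brighter than most genes, with a median log2 level of 6.33, beside 4.65 over all genes. Of the 57, 3 were among the dimmest 25% of genes. Without that 25%, 20 of 54 members were lower at an unadjusted p under 0.05, beside 10.2% of the genes left. Then 4 members were called lower, beside 2.19%. The shares with groups apart were not compared at like level. The log2 change (hypoosmotic minus normoosmotic) was negative in 42 of 57 members (73.7%), beside 41.8% of all genes, and its median was −0.19, beside 0.04 over all genes. Because the group was proposed with results of these data known, these counts are descriptions without a test. In whole liver, fewer cells of a type and less RNA per cell cannot be told apart.

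**Figure D1:**
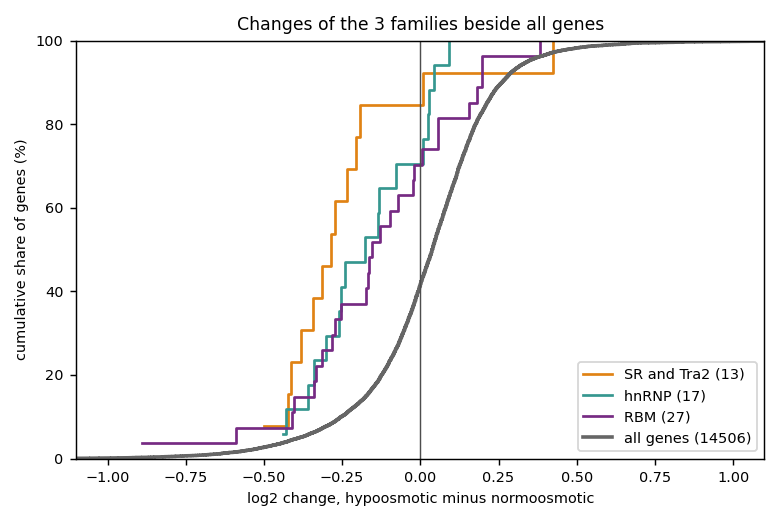
Cumulative share of genes (y axis, %) by log2 change, hypoosmotic minus normoosmotic (x axis), for SR and Tra2 genes, hnRNP genes, RBM genes and all 14506 genes. The 3 family curves lie left of the curve of all genes over most of their range, with medians of −0.29 for SR and Tra2, −0.18 for hnRNP, −0.15 for RBM and 0.04 for all genes.

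Rbm25 had the largest change of the 57. It encodes a protein that associates with the U1 particle, which recognises the start of introns, and it regulates alternative splicing, for example of the apoptosis regulator BCL-X in human cells. Its values (probe set 10731611) were 7.55, 7.50, 7.78 and 7.93 in hypoosmotic samples, against 8.72, 8.43, 8.68 and 8.49 in normoosmotic samples. The groups did not overlap, and a gap of 0.50 log2 units separated the highest hypoosmotic from the lowest normoosmotic value. The mean was 7.69 ± 0.20 in hypoosmotic and 8.58 ± 0.14 in normoosmotic samples (SD, n = 4 each). The log2 change was −0.89 ± 0.13 (SE; limma, adjusted p = 0.00437). The hypoosmotic level was 0.540 of the normoosmotic one, with a 95% interval of 0.446 to 0.653.

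A further probe set of Rbm25 (10885802), not used for the choice of members, gave the same direction. It read 6.25, 6.06, 6.73 and 6.66 in hypoosmotic samples, against 7.37, 6.96, 7.46 and 7.19 in normoosmotic samples. These groups did not overlap either, and the change was −0.82 ± 0.17 (SE; limma, adjusted p = 0.0344 over all probe sets). Over the 16 other settings the adjusted p of Rbm25 lay between 0.00197 and 0.108. The call was lost in 1 of them, when the normoosmotic replicates 1 and 3 with their low clock scores were left out: the change was then −0.77 with an adjusted p of 0.108, with 2 normoosmotic samples left.

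Rbm28 encodes a nucleolar protein of the large ribosomal subunit pathway that is also found with spliceosomal small nuclear RNAs. Its values were 5.23, 5.18, 5.16 and 5.57 in hypoosmotic samples, against 5.99, 5.74, 5.91 and 5.86 in normoosmotic samples. The groups did not overlap, and hypoosmotic replicate 4 stood nearest to the normoosmotic samples. The mean was 5.29 ± 0.19 in hypoosmotic and 5.88 ± 0.11 in normoosmotic samples (SD, n = 4 each), a log2 change of −0.59 ± 0.12 (SE; limma, adjusted p = 0.0264). Rbm28 kept its call in 8 of 16 other settings. The adjusted p was 0.0685, 0.0981 and 0.0752 without hypoosmotic replicates 1, 2 and 3, and 0.0850, 0.0837 and 0.0514 without normoosmotic replicates 1, 3 and 4. The change in these fits stayed between −0.60 and −0.55. In a fit that also held the clock score the adjusted p was 0.0883 at a change of −0.54, and without both normoosmotic samples of low clock score 0.320, at a change of −0.52.

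**Figure D2:**
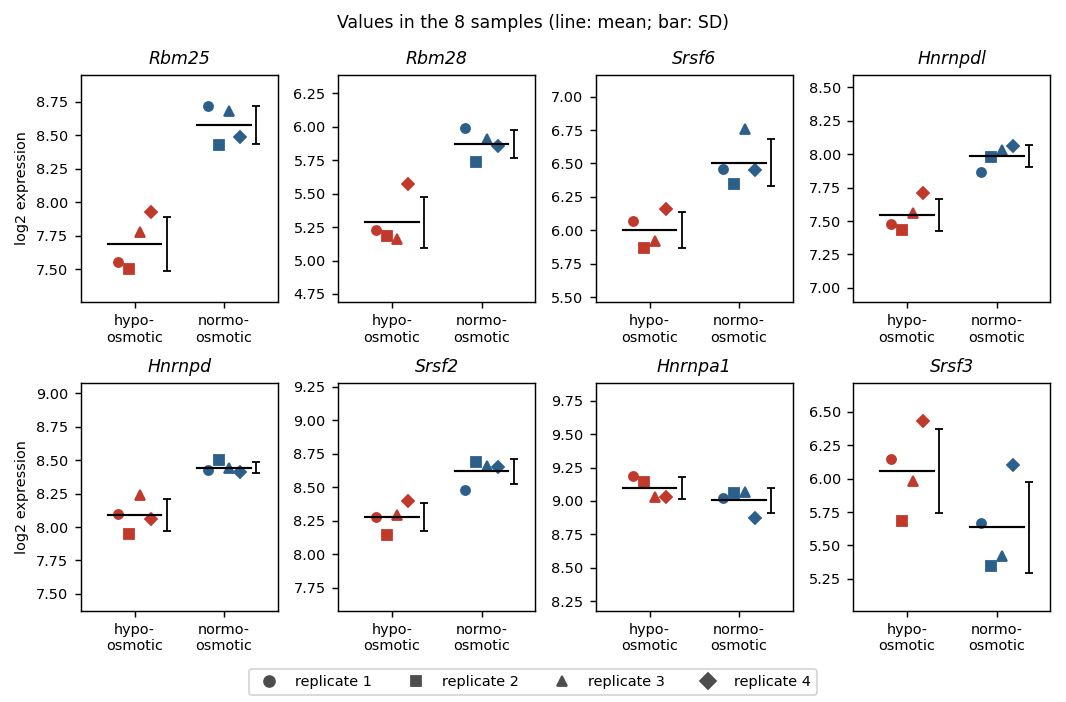
Log2 expression (y axis) of 8 genes in the 4 hypoosmotic and the 4 normoosmotic samples (x axis), with the mean as a line and the SD as a bar, and the replicate number as the symbol. All panels span the same 1.7 log2 units. The groups are apart for Rbm25, Rbm28, Srsf6, Hnrnpdl, Hnrnpd and Srsf2 and overlap for Hnrnpa1 and Srsf3.

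The upstream sequences of the called genes Rbm25 and Rbm28, and of Srsf6 and Hnrnpdl, the uncalled members with the smallest p, are shown for the short promoter motifs they hold. Each run gives the 250 bases before the start site listed by RefSeq in the GRCr8 assembly, 5′ to 3′ on the strand of the gene. Capitals mark a match on either strand to CCAAT (the core of the NF-Y site), CCGGAA (the core of many ETS factor sites), GGGCGG (the GC box), CACGTG (an E-box, read by Myc and clock factors) or TATAAA (the TATA box). None of these motifs contains another, but matches may touch. The windows are chr6:109002641-109002890 on the plus strand for Rbm25, chr4:58726969-58727218 on the minus strand for Rbm28, chr3:172008822-172009071 on the plus strand for Srsf6 and chr14:9861466-9861715 on the plus strand for Hnrnpdl. The listed start lies 9772 bases inside the outermost start of the Rbm25 gene and 344 bases inside that of Rbm28, and equals the outermost start of Srsf6 and Hnrnpdl. Hnrnpdl has 2 listed starts, of which the first is shown.
Rbm25: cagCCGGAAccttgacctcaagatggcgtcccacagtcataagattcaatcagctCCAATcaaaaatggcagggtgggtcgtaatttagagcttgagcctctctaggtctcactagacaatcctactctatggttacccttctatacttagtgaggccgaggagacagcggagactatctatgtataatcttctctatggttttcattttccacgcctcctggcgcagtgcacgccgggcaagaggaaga
Rbm28: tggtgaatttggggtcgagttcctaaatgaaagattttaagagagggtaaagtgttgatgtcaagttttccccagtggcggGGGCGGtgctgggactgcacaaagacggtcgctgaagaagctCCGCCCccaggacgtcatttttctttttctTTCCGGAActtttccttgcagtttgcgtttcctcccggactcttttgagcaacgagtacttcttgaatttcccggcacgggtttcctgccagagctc
Srsf6: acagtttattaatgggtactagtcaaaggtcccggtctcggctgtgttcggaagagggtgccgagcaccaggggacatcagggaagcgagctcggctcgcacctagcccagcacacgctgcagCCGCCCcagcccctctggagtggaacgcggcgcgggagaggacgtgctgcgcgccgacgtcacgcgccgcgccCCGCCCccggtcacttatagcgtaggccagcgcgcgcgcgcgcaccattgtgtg
Hnrnpdl: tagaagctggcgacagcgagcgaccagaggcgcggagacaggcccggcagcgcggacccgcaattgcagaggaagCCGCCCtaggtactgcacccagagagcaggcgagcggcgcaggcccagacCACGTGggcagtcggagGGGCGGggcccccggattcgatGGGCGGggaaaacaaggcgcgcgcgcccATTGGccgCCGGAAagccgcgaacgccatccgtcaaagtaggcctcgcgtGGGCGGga

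RefSeq lists such a window for 52 of the 57 members, and the first window of each gene was read. The Rbm25 window holds 1 match to CCGGAA and 1 to CCAAT. The Rbm28 window holds 2 overlapping matches to CCGGAA, which lie on opposite strands of 1 run, and 2 to the GC box. Of the 52 members, CCAAT was found in 28 (53.8%), beside 35.6% of the 11950 measured genes with a window, and CCGGAA in 19 (36.5%), beside 18.4%. The GC box was found in 55.8% of members and 47.3% of genes, CACGTG in 11.5% and 6.9%, and TATAAA in 13.5% and 11.2%. CpG pairs numbered 20.5 per member window at the median, against 12 over all windows. Among the 14 members whose groups were apart, 8 held CCGGAA, 6 CCAAT and 11 the GC box. Some counted windows precede a listed start that lies inside the gene. It lies 7221 bases inside the outermost start for Hnrnph1 and 108395 bases inside for Rbm47. A match is a run of letters and was not tested as a binding site. Tra2a, Rbm4, Rbm11, Rbm12 and Rbm20 are named only.

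No SR gene passed the adjusted threshold, and most lay on the lower side. Of the 13 SR and Tra2 genes limma called 0, and at an unadjusted p under 0.05 there were 8 lower and 1 higher, beside 7.97% and 6.60% of all genes. In 7 of 13 (53.8%) the groups were apart on the lower side, beside 5.05% of all genes, and the median log2 change was −0.29. Srsf6, which binds exonic enhancers in pre-mRNA, came nearest to a call. It read 6.07, 5.87, 5.92 and 6.16 in hypoosmotic samples, against 6.46, 6.35, 6.76 and 6.45 in normoosmotic samples. The groups were apart by 0.19, and the change was −0.50 ± 0.12 (SE; limma, adjusted p = 0.0573). Over the 16 other settings its adjusted p lay between 0.0476 and 0.453, and it passed in 2 of them, with the dimmest 25% of genes removed (0.0478) and without hypoosmotic replicate 4 (0.0476).

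Srsf2, a nuclear SR protein that marks exons for inclusion, read 8.28, 8.14, 8.29 and 8.40 in hypoosmotic samples, against 8.48, 8.69, 8.66 and 8.65 in normoosmotic samples. All 4 hypoosmotic values were the lower ones, with a change of −0.34 ± 0.11 (adjusted p = 0.134). Srsf10, a splicing repressor when dephosphorylated, read 5.09, 4.65, 5.04 and 5.23 in hypoosmotic samples, against 5.54, 5.36, 5.37 and 5.43 in normoosmotic samples. Here hypoosmotic replicate 2 was the lowest of the 8, and the change was −0.42 ± 0.13 (adjusted p = 0.127). Srsf11, an arginine- and serine-rich splicing protein, had a change of −0.38 ± 0.12 (adjusted p = 0.125), with hypoosmotic values of 5.97 to 6.29 and normoosmotic values of 6.36 to 6.61. Srsf5 overlapped between the groups, with 8.27 to 8.43 in hypoosmotic and 8.40 to 8.73 in normoosmotic samples and a change of −0.21 (adjusted p = 0.429).

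The remaining SR genes, named here after their values were seen, split as follows. Srsf7 and Srsf1 were apart, with changes of −0.31 (adjusted p = 0.144) and −0.29 (0.234). Srsf1 is the classical SR splicing factor, and it read 5.66 to 6.00 in hypoosmotic samples, against 6.10 to 6.18 in normoosmotic samples. Tra2b, which binds GAA-rich exon sequences, was apart at 7.15 to 7.29 in hypoosmotic and 7.36 to 7.64 in normoosmotic samples (change −0.27, adjusted p = 0.257). A further, dimmer probe set of Tra2b overlapped, at 6.20 to 6.90 in hypoosmotic and 6.42 to 6.86 in normoosmotic samples (change −0.18). The paralog Tra2a overlapped at a change of −0.42 (adjusted p = 0.230). Srsf4 and Srsf9 had changes of −0.23 and −0.19 with 95% intervals that included 0. Srsf12, which lay in the lowest 25% of genes by signal in these samples, had a change of 0.01.

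Srsf3, the smallest SR protein and a regulator of hepatocyte metabolism and differentiation in mice, was the 1 SR gene with an unadjusted p under 0.05 on the higher side. It read 6.15, 5.68, 5.98 and 6.43 in hypoosmotic samples, against 5.67, 5.35, 5.42 and 6.10 in normoosmotic samples. The groups overlapped, and each group spanned 0.75 log2 units. The change was 0.42 ± 0.18 (limma, adjusted p = 0.306), with adjusted p-values between 0.0837 and 0.811 over the other settings and a positive change in all 16. Whether Srsf3 differed from the other SR genes was not tested.

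**Figure D3:**
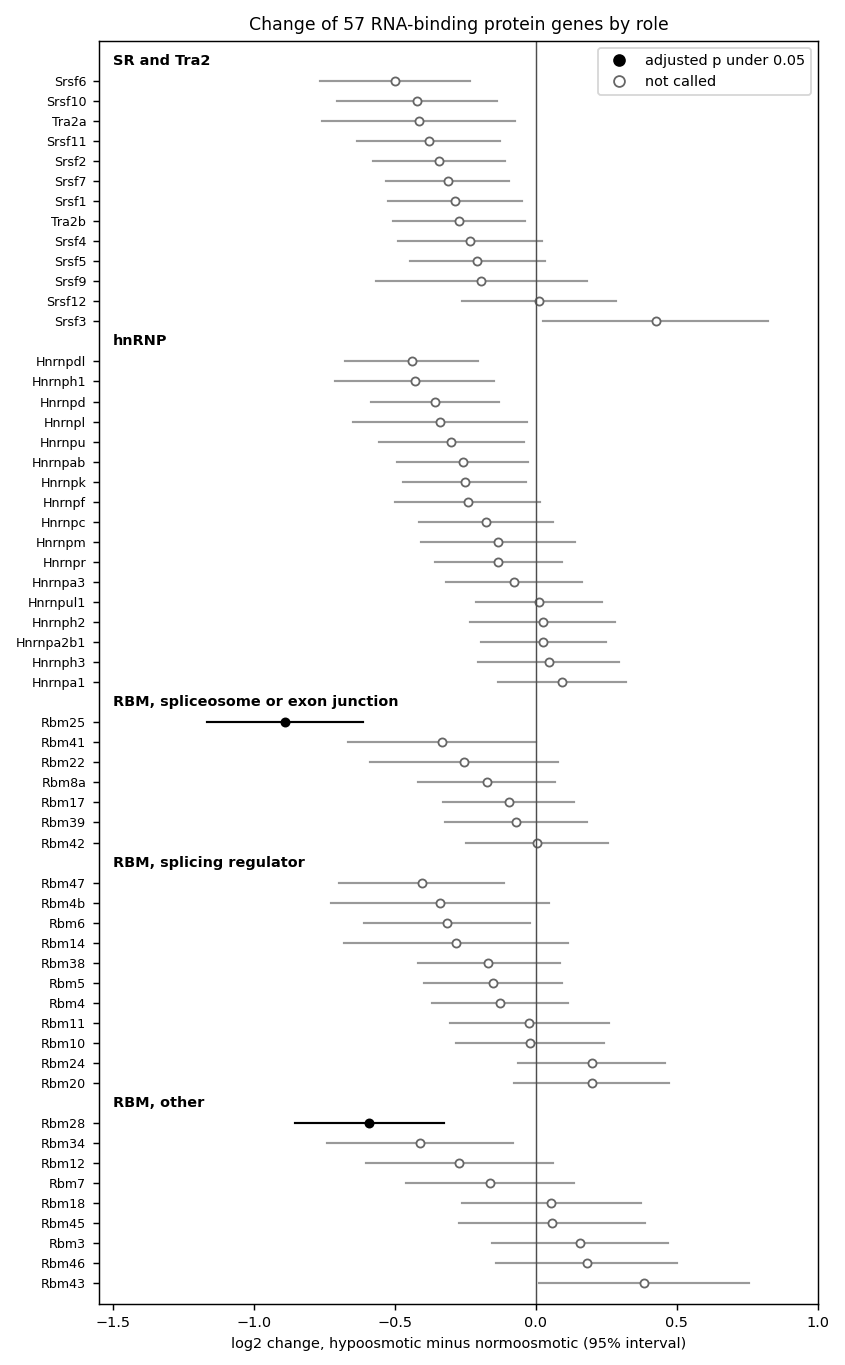
Log2 change, hypoosmotic minus normoosmotic, with its 95% interval (x axis) for the 57 genes grouped by role (y axis). Filled points mark genes called at an adjusted p under 0.05, which are Rbm25 at −0.89 and Rbm28 at −0.59. Srsf3 at 0.42 and Rbm43 at 0.38 lie farthest on the higher side.

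Among the 17 hnRNP genes limma called 0, with 7 lower and 0 higher at an unadjusted p under 0.05, beside 7.97% and 6.60% of all genes. In 5 (29.4%) the groups were apart on the lower side, beside 5.05%. The median log2 change was −0.18. The genes nearest to a call were Hnrnpdl and Hnrnpd, related binders of AU-rich elements that regulate mRNA decay, and they are direct neighbours in the RefSeq gene order. Hnrnpdl read 7.48, 7.43, 7.56 and 7.71 in hypoosmotic samples, against 7.87, 7.98, 8.03 and 8.06 in normoosmotic samples. The groups were apart, and the change was −0.44 ± 0.11 (SE; limma, adjusted p = 0.0601). It passed in 3 of 16 other settings: with a trended and robust prior (0.0452), on removal of the dimmest 25% of genes (0.0482) and without hypoosmotic replicate 4 (0.0441), within a range of 0.0441 to 0.305.

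Hnrnpd read 8.10, 7.95, 8.24 and 8.06 in hypoosmotic samples, against 8.43, 8.50, 8.44 and 8.41 in normoosmotic samples. The hypoosmotic values, all of them lower, spanned 0.29 log2 units and the normoosmotic ones 0.09, and the change was −0.36 ± 0.11 (adjusted p = 0.109). Hnrnpab, of the same subfamily, was also apart, at 9.50 to 9.70 in hypoosmotic and 9.74 to 9.96 in normoosmotic samples (change −0.26, adjusted p = 0.279). Hnrnpk, a binder of C-rich sequences, spanned only 9.67 to 9.71 over the hypoosmotic samples, against 9.84 to 10.01 over the normoosmotic ones. Its change was −0.25 (adjusted p = 0.255), and a further probe set gave −0.24.

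The H and F subfamily binds runs of G, and its genes had changes on either side of 0. Hnrnph1 read 8.32, 8.26, 8.12 and 8.47 in hypoosmotic samples, against 8.98, 8.81, 8.50 and 8.60 in normoosmotic samples. Its groups were apart by 0.03, with a change of −0.43 ± 0.13 (adjusted p = 0.121). Hnrnpf had a change of −0.24 (adjusted p = 0.383), with 8.88 to 8.93 in hypoosmotic and 8.91 to 9.39 in normoosmotic samples. A further, dimmer probe set of Hnrnpf gave −0.10. Hnrnph2 and Hnrnph3 had changes of 0.03 and 0.04, with 95% intervals of −0.23 to 0.28 and −0.21 to 0.30. The difference between these paralogs was not tested.

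Hnrnpa1, Hnrnpa2b1 and Hnrnpa3, abundant nuclear proteins that often favour exon skipping, had changes of 0.09, 0.03 and −0.08. Hnrnpa1 read 9.19, 9.14, 9.03 and 9.03 in hypoosmotic samples, against 9.02, 9.06, 9.07 and 8.87 in normoosmotic samples. The groups overlapped, the change was 0.09 (95% interval −0.14 to 0.32), and its 3 probe sets gave 0.08 to 0.10. The 8 probe sets of Hnrnpa3 gave −0.15 to −0.05, and the 2 of Hnrnpa2b1 gave 0.03 and −0.05. Near-identical copies of these genes could share signal between probe sets, which was not tested. Of the other hnRNPs, Hnrnpu, a nuclear scaffold protein, and Hnrnpl, a binder of CA repeats, had changes of −0.30 and −0.34 with unadjusted p-values of 0.0257 and 0.0341 and overlapping groups. Hnrnpc, Hnrnpm and Hnrnpr had changes of −0.18, −0.14 and −0.13, and Hnrnpul1 one of 0.01 (95% interval −0.21 to 0.23).

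The changes of the RBM genes ran between −0.89 and 0.38, and those of the hnRNPs between −0.44 and 0.09. Of 27, limma called 2 lower and 0 higher, beside 1.42% and 0.558% of all genes. At an unadjusted p under 0.05, 5 (18.5%) were lower and 1 was higher, beside 7.97% and 6.60% of all genes. The median of the 27 was −0.15. In 2 of 27 (7.41%) the groups were apart on the lower side, beside 5.05% of all genes, so this share lay near that of all genes. Of the 7 genes placed with the spliceosome or the exon junction complex, Rbm25 was the 1 call. Rbm39, a splicing coactivator related to U2af2, read 8.85, 8.76, 8.82 and 9.05 in hypoosmotic samples, against 8.95, 8.86, 8.81 and 9.14 in normoosmotic samples, a change of −0.07 (95% interval −0.32 to 0.18). Its other probe set, with a mean of 4.17, gave a change of −0.48 ± 0.15 with the groups apart (adjusted p = 0.164 over all probe sets), so the probe sets of Rbm39 disagree in size. Rbm22, a protein of the catalytic spliceosome, had a change of −0.25 (adjusted p = 0.504) and Rbm41 one of −0.33 (0.346). Rbm8a, a core part of the exon junction complex, had a change of −0.17, and Rbm17 and Rbm42 had changes of −0.10 and 0.01, all 3 with intervals that included 0.

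Among 11 RBM genes placed as regulators of alternative splicing, 0 were called and 0 had groups apart. Over all genes 1.98% were called in either direction. Groups were apart on the lower side in 5.05% and on the higher side in 3.21%, so counts of 0 in 11 genes lie near these shares. At an unadjusted p under 0.05, 2 (18.2%) were lower and 0 higher, beside 7.97% and 6.60% of all genes. Rbm47 read 8.06, 8.05, 8.07 and 8.50 in hypoosmotic samples, against 8.40, 8.70, 8.46 and 8.74 in normoosmotic samples. Hypoosmotic replicates 1 to 3 lay close together and under all normoosmotic values, while replicate 4 lay among them. The change was −0.41 ± 0.14 (SE; limma, adjusted p = 0.158), and −0.52 with an adjusted p of 0.0530 without hypoosmotic replicate 4, the lowest of a range of 0.0530 to 0.357. Rbm6, a neighbour and relative of Rbm5, had a change of −0.32 (adjusted p = 0.303), while Rbm5 and Rbm10, which like it regulate exon choice in apoptosis genes, had changes of −0.15 and −0.02. Rbm4b, next to Rbm4 and Rbm14 in the RefSeq gene order, read 4.36 to 4.98 in hypoosmotic samples, against 4.56 to 5.43 in normoosmotic samples, the widest normoosmotic span of the 57. Its change was −0.34 (adjusted p = 0.420), beside −0.13 for Rbm4 and −0.28 for Rbm14. Rbm38, a p53 target, had a change of −0.17. Rbm24 and Rbm20, known for splicing in heart muscle, had changes of 0.20 each, and Rbm11 one of −0.02. Rbm20 and Rbm11 lay in the lowest 25% of genes by signal.

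Of the 9 remaining RBM genes, Rbm28 was the 1 call, beside 1.42% of all genes called lower. The change was negative in 4 of the 9 (44.4%), near the 41.8% of all genes, and the median was 0.055. Rbm34 read 5.52, 5.43, 4.99 and 5.64 in hypoosmotic samples, against 6.00, 5.52, 5.83 and 5.87 in normoosmotic samples. The groups overlapped, with hypoosmotic replicate 3 the lowest of the 8, and the change was −0.41 ± 0.15 (limma, adjusted p = 0.216). Rbm43 read 4.21, 4.06, 4.37 and 4.91 in hypoosmotic samples, against 3.86, 3.81, 4.14 and 4.21 in normoosmotic samples. The groups overlapped, and the change was 0.38 ± 0.17 (adjusted p = 0.328). Rbm3, which is induced by cold, had a change of 0.16 (adjusted p = 0.688), with 8.55 to 8.92 in hypoosmotic and 8.33 to 8.96 in normoosmotic samples. Rbm7, part of the nuclear exosome targeting complex, had a change of −0.16 (adjusted p = 0.663). Rbm12, Rbm18, Rbm45 and Rbm46 had changes of −0.27, 0.06, 0.06 and 0.18, with intervals that included 0.

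**Figure D4:**
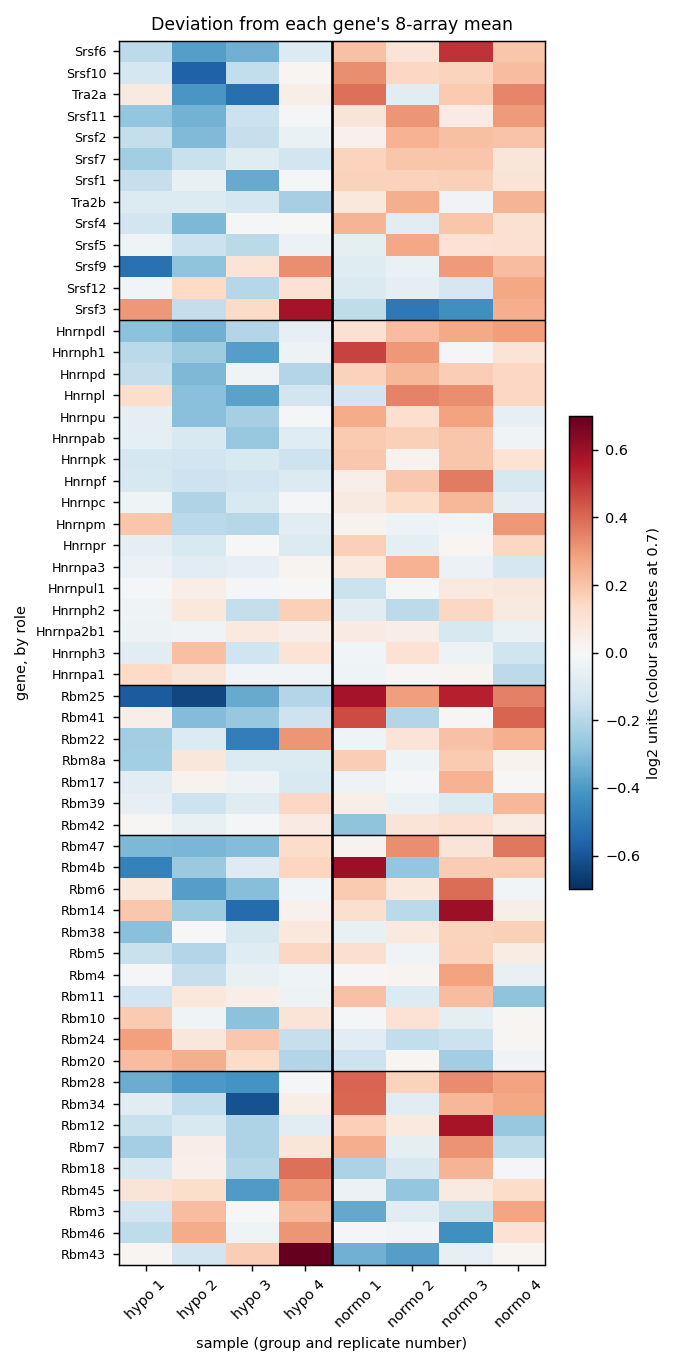
Deviation of each of the 57 genes (y axis, by role) from its own mean over the 8 arrays, in log2 units, for the 4 hypoosmotic and the 4 normoosmotic samples (x axis). Blue cells are below the mean of the gene and red cells above it, and colours saturate at 0.7. Hypoosmotic replicate 4 has 32 genes under their mean, against 42 to 49 in the other hypoosmotic samples.

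The members were shifted unevenly over the samples. The median deviation of the 57 from their own 8-array means was −0.08, −0.14, −0.14 and −0.01 in hypoosmotic replicates 1 to 4, against 0.06, 0.03, 0.17 and 0.10 in normoosmotic replicates 1 to 4. Over all genes the same median lay between −0.01 and 0.03 in hypoosmotic samples and between −0.02 and −0.01 in normoosmotic samples. In the hypoosmotic samples 43, 42, 49 and 32 of the 57 lay under their own mean, against 21, 25, 15 and 15 in the normoosmotic samples. Hypoosmotic replicate 4 was thus the one nearest to the normoosmotic samples. Its median was −0.01 for SR genes and −0.04 for hnRNPs, and for RBM genes it was 0.06, above those of normoosmotic replicates 1, 2 and 4 (0.03, −0.03 and 0.05). Without it, 4 members were called lower, the added ones being Srsf6 and Hnrnpdl. Of all genes 1.98% were then called lower, in place of 1.42% with all 8 samples. Of the normoosmotic samples, replicates 1 and 3 with the low clock scores had median deviations of 0.06 and 0.17, and replicates 2 and 4 had 0.03 and 0.10.

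Without normoosmotic replicates 1 and 3, a choice made after seeing the data, 0 members were called, as were 21 of all genes in place of 287. The log2 change was then negative in 44 of 57, with a median of −0.13, and 12 members had an unadjusted p under 0.05 on the lower side, beside 4.60% of all genes. With 4 hypoosmotic against 2 normoosmotic samples, 17 of 57 were apart on the lower side, beside 8.05% of all genes, and 0 on the higher side, beside 7.90%. With the clock score as a covariate in the fit of all 8 samples, 1 member, Rbm25, was called lower (adjusted p = 0.0145). Over all genes 0.441% were called lower in that fit. The change was negative in 44 members, and the median was −0.16. At an unadjusted p under 0.05, 16 members were lower there, beside 6.31% of all genes.

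**Figure D5:**
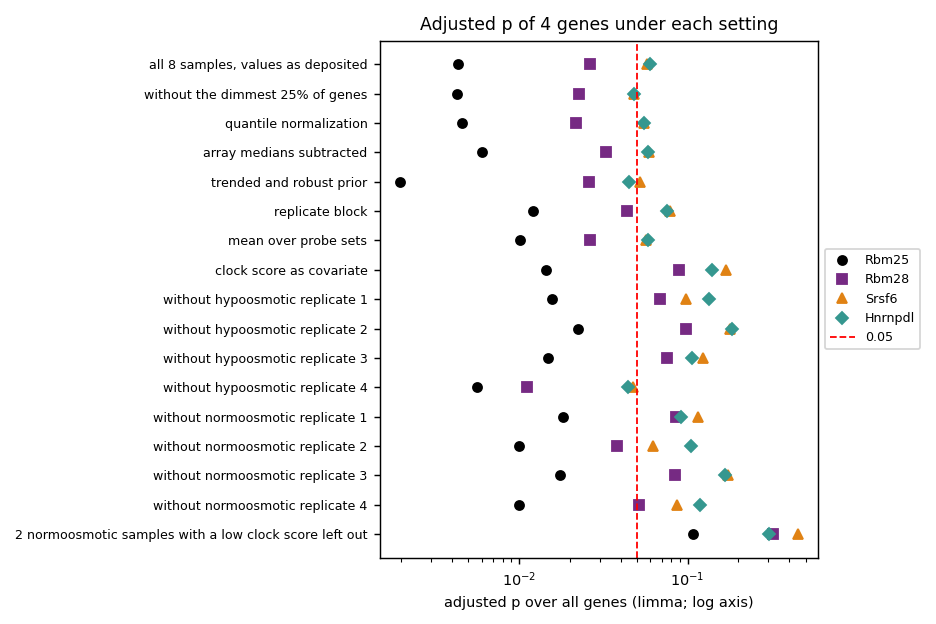
Adjusted p over all genes by limma (x axis, log scale) of Rbm25, Rbm28, Srsf6 and Hnrnpdl under each processing setting (y axis), with the threshold of 0.05 as a dashed line. Rbm25 stays left of the line in every setting shown except the last, without the 2 normoosmotic samples of low clock score, where it is 0.108.

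Other genes of the splicing pathway were taken from 4 lists. The first held 16 measured genes, which are kinases and cyclins that act on SR proteins or on RNA polymerase II and the import receptor of SR proteins, Tnpo3. Of these 16, 7 were called lower and 0 higher. Over all genes 1.42% were called lower and 0.558% higher, and the median log2 change was 0.04. The SR protein kinase gene Clk1 fell by 1.02 ± 0.13 (SE; limma, adjusted p = 0.00248), the cyclin gene Ccnl2 by 0.76 ± 0.12 and Clk3 by 0.56 ± 0.11, and the median of the list was −0.42. Among 48 measured further splicing regulators, 6 were called lower and 0 higher, with a median of −0.24. They include Ptbp1, a pyrimidine tract binder also called hnRNP I, which fell by 0.76 ± 0.14 (adjusted p = 0.0165), and Luc7l3, a U1-associated protein, which fell by 0.91 ± 0.18 (adjusted p = 0.0242). Scaf4, which prevents early termination of transcripts, fell by 0.77 ± 0.13, and Elavl1, which stabilises AU-rich mRNAs, by 0.61 ± 0.13.

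Among 57 measured genes of the core spliceosome, 2 were called lower and 0 higher, beside 1.42% and 0.558% of all genes. The 2 were Prpf38b and Prpf3, and the median of the list was −0.11. Of 14 measured genes of nonsense-mediated decay, the exon junction and mRNA export, 1 was called lower and 0 higher, the export receptor gene Nxf1 at −0.50 ± 0.12 (SE; limma, adjusted p = 0.0465), and all 14 changes were negative, with a median of −0.24. The 4 counts were lower without the 2 normoosmotic samples of low clock score, at 1 for the kinases and 0 for each other list. In the fit with the clock score they were 2 for the kinases, 1 for the further regulators and 0 for the rest. When 1 sample was left out they ran between 2 and 7 for the kinases, 1 and 8 for the further regulators, 0 and 3 for the core spliceosome and 0 and 2 for the decay and export genes. The lowest of these were reached without hypoosmotic replicate 2, and the highest without hypoosmotic replicate 4.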

How the data were processed

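Total RNA of perfused rat liver was extracted with Trizol, labelled with biotin and hybridised to 1-colour Affymetrix arrays, per the labels' protocols. The software, per the submitters' processing notes, was Transcriptome Analysis Console 4.0. The sources used here do not give how probes were summarised or normalized. The authors' deposited values for 27596 probe sets were taken unchanged as log2 values, a scale read from their range. No detection call was used, so low values can be background.

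Probe sets with 1 platform symbol (15310) were named with symbols updated by gene ID through RefSeq (GRCr8), which matched 15279. Each of 14506 genes was represented by its brightest probe set on average. The test was limma 3.58.1 under R 4.3.3 (lmFit, eBayes, 1 group term, two-sided), with Benjamini-Hochberg adjustment over all genes and a threshold of 0.05. The script was tested on simulated data. The members, gene lists and alternatives were chosen with earlier results of these data known, and no set test was run. Named genes were all called members, in each role group the 3 with the smallest p and the 2 with the highest mean, members whose probe sets differ in sign, the 3 nearest uncalled, the one with the widest normoosmotic range, and up to 4 called genes per list; other members were named after their values were seen. Same-numbered samples of the groups were not treated as pairs.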

Additional observations from a re-analysis of the deposited data

Results flagged for a closer look

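In 46 groups of 4 values (23 named members in 2 groups), 3 samples lay far from the other 3 of their group by Dixon's 95% criterion, and chance alone marks about 1 in 20 groups. Rbm47 in hypoosmotic replicate 4 was 8.50, above the other hypoosmotic values of 8.05 to 8.07. Rbm28 in hypoosmotic replicate 4 was 5.57, above 5.16 to 5.23. Hnrnpab in normoosmotic replicate 4 was 9.74, under the other normoosmotic values of 9.93 to 9.96. Both hypoosmotic samples concerned are the same array, the one in which the members' median deviation was nearest to 0, and the part of any other difference of that sample was not tested.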

How the results depend on the processing

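Of 368 values of named members under other settings, 349 kept direction and side of the threshold, 9 lost and 5 gained a call, and 5 changed sign, all in uncalled genes. Hnrnpa2b1, at 0.03 as reported, became −0.015 after subtraction of array medians, −0.011 with the mean over probe sets and −0.006 to 0.051 when 1 sample was left out (lowest without normoosmotic replicate 3), and without the 2 normoosmotic samples of low clock score Rbm3 became −0.02 and Rbm7 0.04. The members called lower, 2 as reported, were 4 without the dimmest 25% of genes, 1 with the clock score as a covariate and 1 to 4 when 1 sample was left out. Genes called over all genes, 287 as reported, were 92 with the clock score as a covariate and 81 to 365 when 1 sample was left out. Without the 2 samples of low clock score, chosen after seeing the data, 0 members and 21 genes were called and the members' median was −0.13; that fit has fewer samples, and the cause of the lower counts was not tested otherwise. Members called higher were 0 in all settings. The replicate numbers correlated by 0.05, 0.03, 0.08 and 0.17 in their deviations from the group means, not every sample correlated best with its own number, and with the replicate number as a block 2 members and 256 genes were called; no call of a member changed. Under that block 4 kinases and 1 core spliceosome gene were called, in place of 7 and 2, and the call of Nxf1 was lost, as it was after subtraction of array medians. Rbm28 was called in 8 of 16 settings and Rbm25 in 15. The precision is limited by 4 arrays per group and, for dim genes, by background.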

Other observations

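Cirbp, which like Rbm3 is induced by cold, read 6.10, 6.32, 6.28 and 6.27 in hypoosmotic samples, against 5.62, 6.04, 5.61 and 6.21 in normoosmotic samples. The groups overlapped, and the log2 change was 0.37 ± 0.14 (SE; limma, adjusted p = 0.242). The normoosmotic replicates 1 and 3, which have the low clock scores, held the lowest values of the 8. Rbm3 read 8.55, 8.90, 8.69 and 8.92 in hypoosmotic samples, against 8.33, 8.61, 8.53 and 8.96 in normoosmotic samples, where replicates 1 and 3 were again the lowest of their group. In a fit that also held the clock score, the change of Rbm3 was 0.07, in place of 0.16, and without normoosmotic replicates 1 and 3 it was −0.02. Leaving out only normoosmotic replicate 1 gave 0.065, and leaving out only normoosmotic replicate 4 gave 0.275. Rbm3 was not called in any setting. The part of the clock in the values of Rbm3 and Cirbp was not tested. The values of Cirbp in these fits are not reported here.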
